A study of Drosophila melanogaster with 4 samples.

Results

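The 7 genes described here are fzo, Marf, Drp1, Pink1, park, milt and rho-7, which fuse, divide, move or survey mitochondria. They were chosen by name, each was found as a single row in every table, and the tables held 16510 gene names in all. The 4 RNA-seq libraries were made from polyadenylated RNA of testes of adult Drosophila melanogaster. Of these, 2 came from males labelled with the genotype Su(var)3-9, the gene of a histone H3 lysine 9 methyltransferase of heterochromatin, and 2 from males labelled wild type. All males were 3 days old and kept at 23 °C, each library was made from 50 testes, and the series describes the replicates as biological. The sources used here name neither the allele of Su(var)3-9 nor the wild-type stock.

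After meiosis in the fly testis, the mitochondria of each spermatid gather beside the nucleus and fuse into a pair of giant mitochondria wrapped around each other, the Nebenkern. These later unfurl and stretch along the growing sperm tail as the mitochondrial derivatives. The outer membranes are fused by mitofusins, large GTPases, of which flies have a male germline form, fuzzy onions (fzo), and a general form, Marf. Division needs Drp1, a dynamin-related GTPase recruited to the outer membrane. Pink1, a mitochondrial kinase, acts upstream of the ubiquitin ligase parkin (park), and males that lack either gene are sterile with defective spermatid mitochondria. The rhomboid protease rho-7 sits in the inner membrane and is needed for fusion of spermatid mitochondria, and milton (milt) links mitochondria to kinesin through the outer membrane GTPase Miro.

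The levels are FPKM, fragment numbers divided by the transcript's length and by the size of the library. Division by length is meant to let genes of different length be compared. Where a remaining trend of level on transcript length was removed, the log2 fold change of milt moved from -0.46 to -0.12. The depth, estimated from the deposited intervals, was 1446647 and 1468278 fragments in the mutant-labelled libraries and 3207719 and 3366747 in wild-type testes, a difference in depth that follows genotype. The summed FPKM of all rows also followed genotype, at 1028898 and 1004211 in the mutant-labelled libraries and 851134 and 810704 in wild-type testes. The libraries were not rescaled to equal sums, and the part of this difference in the changes below was not tested. The level of Su(var)3-9 itself was listed at 0 FPKM in mutant replicate 1 and at 7.83 FPKM in mutant replicate 2, against 7.93 and 9.74 FPKM in wild-type testes (limma adjusted p = 0.339). A 0 listed for a gene can be a failed estimate, so it does not show loss of the transcript in mutant replicate 1. The level also does not tell mutant replicate 2 from wild-type testes, and every direction below is between libraries as labelled. The 5 testis markers read (bam, vas, betaTub85D, Mst87F and Mst35Ba) were above 0 in every library, with betaTub85D, the germline tubulin, at 1749 to 1957 FPKM and bam, a gene of spermatogonia, at 2.81 to 3.47 FPKM. Mst87F, a sperm tail gene, was at 12608 and 11433 FPKM in the mutant-labelled libraries, against 7070 and 6218 FPKM (log2 fold change 0.86, limma adjusted p = 0.0121). Under quantile normalization its log2 fold change was 0.10 and did not pass (limma adjusted p = 0.263). vas, a germline gene, was at 9.16 and 12.5 FPKM against 15.1 and 16.4 FPKM (-0.51, limma adjusted p = 0.142). The summed level of 9 accessory gland genes was 2569 FPKM in wild type replicate 1 and 5.69 to 35.5 FPKM in the other libraries. Acp95EF was at 0 in all of them. The summed level of 7 muscle genes was 125 to 150 FPKM and that of 5 fat body genes 12.6 to 15.9 FPKM, with overlapping ranges in the genotypes. Single genes differed in direction, with log2 fold changes above 0 for 3 of 7 tested muscle genes and 1 of 3 tested fat body genes. None of these passed the threshold. Both mutant values were the higher ones for Mlc2 and Lsp2 and the lower ones for bt, apolpp, Mtp and Fbp1. Apart from park, each of the 7 genes had 229 to 1228 estimated fragments in a library. In whole testes, fewer cells of a type and less RNA per cell cannot be told apart.

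fzo was the most abundant of the 7 mRNAs in the wild type and the fourth in the mutant-labelled libraries. The gene lies on 3R, 23201644 to 23204034 (dm6, minus strand), as a single exon of 2391 bases inside an intron of the transcription factor gene cnc, which is read from the same strand. The level of fzo was 106 and 101 FPKM in the mutant-labelled libraries, with deposited 95% intervals of 95.2 to 118 and 90.2 to 112 FPKM. It was 137 and 122 FPKM in the wild-type libraries, with intervals of 129 to 145 and 114 to 129 FPKM. Both wild-type values were above both mutant values, but the intervals of mutant replicate 1 and wild type replicate 2 overlapped. The means were 104 ± 3.77 and 129 ± 10.8 FPKM (SD, n = 2 each), a log2 fold change of -0.31 (SE 0.09, 95% interval -0.56 to -0.06, limma adjusted p = 0.0874), which did not pass the threshold of 0.05. Under quantile normalization it was -0.45 and did pass (limma adjusted p = 0.0348). The higher wild-type value was that of replicate 1, the library with the accessory gland transcripts, and without that library the log2 fold change was -0.23 (limma adjusted p = 0.273). The part of those transcripts in the level of fzo was not tested. The host gene cnc was at 32.2 and 36.7 FPKM in the mutant-labelled libraries, against 42.5 and 46.7 FPKM in wild-type testes (log2 fold change -0.36, limma adjusted p = 0.105), so its values lay on the same side as those of fzo.

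Marf, the general mitofusin, was at nearly the same level in the 4 libraries. Its locus is on X, 6365949 to 6370924 (dm6, plus strand), with transcripts of 3444 to 3617 bases. Marf was at 41.6 and 38.5 FPKM in the mutant-labelled libraries, against 39.9 and 40.3 FPKM in wild-type testes. The groups overlapped, and the mutant values lay on either side of the wild-type values. The means were 40.0 ± 2.24 and 40.1 ± 0.313 FPKM (SD, n = 2 each). The log2 fold change was -0.0032 (SE 0.09, limma adjusted p = 0.984), with a 95% interval of -0.26 to 0.25. That interval covers only the spread between these libraries as deposited. With the trend of level on transcript length removed, the log2 fold change of Marf was 0.17 (limma adjusted p = 0.308).

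Set against Marf, fzo made up most of the mitofusin mRNA in every library, as measured by FPKM. Its level was 2.56 and 2.63 times that of Marf in the mutant-labelled libraries and 3.44 and 3.02 times in the wild-type libraries. As a share of the summed FPKM of both genes, fzo was 71.9% and 72.5% in the mutant-labelled libraries and 77.5% and 75.1% in the wild type. All 4 shares favoured the germline form, and the mutant shares were the lower. The log2 ratio of fzo to Marf averaged 1.35 ± 0.03 in the mutant-labelled libraries and 1.66 ± 0.13 in the wild type (SD, n = 2 each), a difference of -0.31. An exact permutation test gave p = 0.33 (two-sided), the smallest that 2 against 2 libraries allow, so this test cannot pass the threshold. A ratio within a library does not depend on the scaling of that library by a common factor. The difference was -0.47 with the trend of level on transcript length removed.

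**Figure D1:**
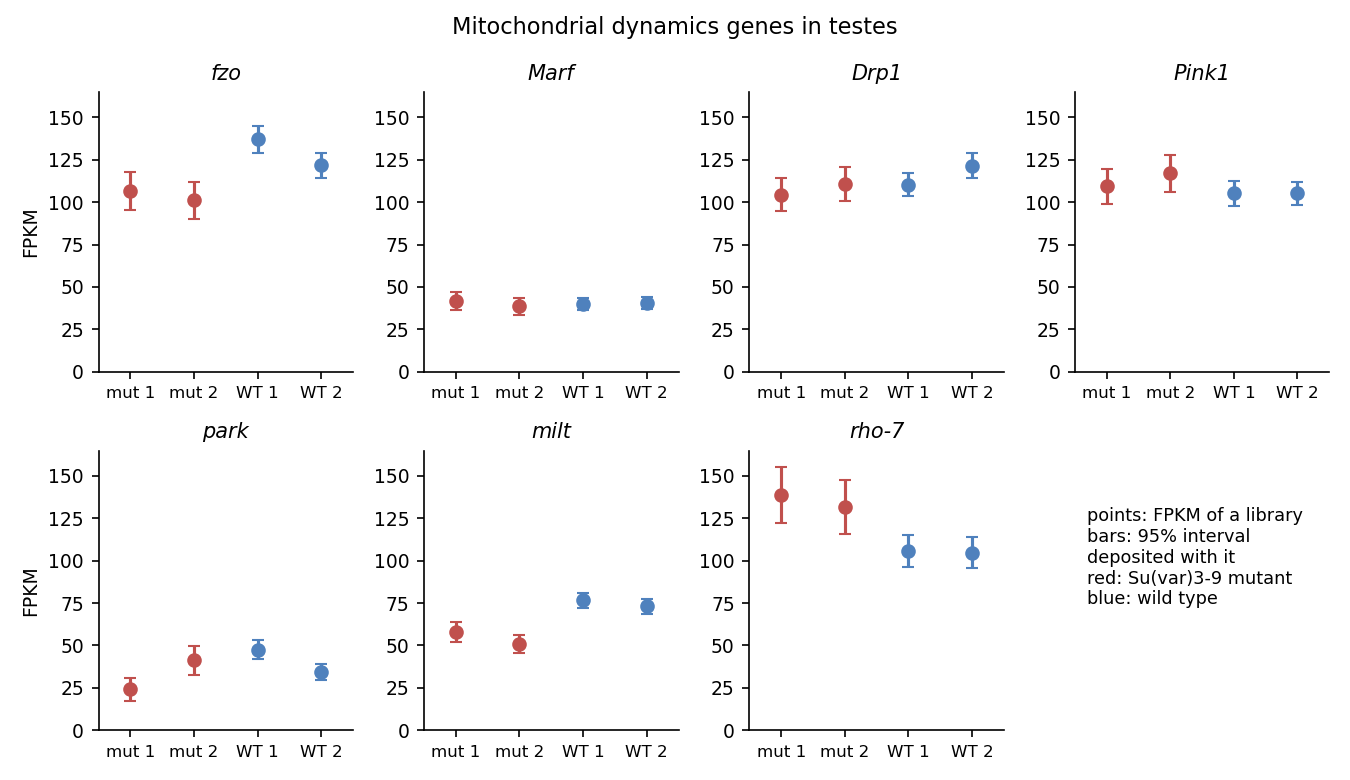
FPKM (vertical axis) of each of the 7 genes in the 4 libraries (horizontal axis; mut, labelled mutant; WT, wild type), with the 95% interval deposited for each library as a bar. Mutant and wild-type intervals are apart for milt and rho-7 and overlap for the other 5 genes, and Marf stays near 40.0 FPKM throughout, while park differs most between replicates.

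The other pairs of a testis form and a general form of a mitochondrial protein gave a measure of how such ratios vary. In all 9 pairs, fzo and Marf among them, the testis form had the higher FPKM in every library. In the wild type the mean log2 ratio was lowest for Porin2 over porin, outer membrane channels (1.35), followed by tomboy20 over Tom20, import receptors (1.64), and the mitofusins (1.66), and it was highest for Cyt-c-d over Cyt-c-p, the cytochrome c genes (4.41). The FPKM of Porin2 was 2.59 and 2.55 times that of porin in the mutant-labelled libraries and 2.58 and 2.53 times in the wild type. The difference in log2 ratio between genotypes was 0.01 for the porins, 0.03 for the cytochromes and -0.01 for tomboy20 over Tom20, and in these 3 pairs the libraries of the genotypes overlapped. Like fzo over Marf, the ratio of knon over ATPsynD, ATP synthase subunit d genes, and that of bb8 over Gdh, glutamate dehydrogenase genes, were lower in both mutant-labelled libraries, by -0.97 and -0.41 on the log2 scale. For bb8 the testis form itself rose (0.33) and its partner Gdh rose more, from 34.8 and 30.1 to 58.1 and 51.4 FPKM (log2 fold change 0.74, limma adjusted p = 0.0297), whereas Marf was nearly level. Those of tomboy40 over Tom40, import channels, and of ttm2 and ttm3 over their shared partner ttm50, Tim50 genes, were higher, by 0.38, 0.39 and 0.89. The exact permutation p was 0.33 for each of the latter 5 pairs and for the mitofusins, and for none of them can 4 libraries give less.

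**Figure D2:**
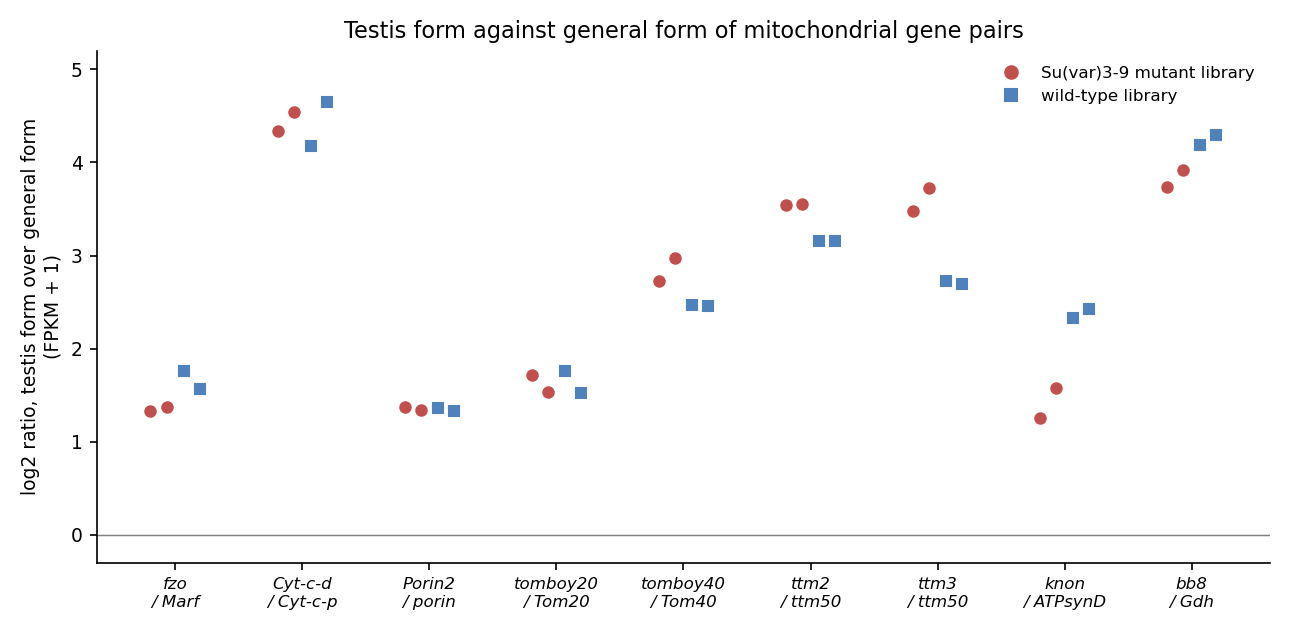
Log2 ratio of the testis form over the general form, from FPKM + 1, for 9 gene pairs, with 1 point for each library. All points lie above 0, and fzo over Marf lies at 1.76 and 1.57 in the wild-type libraries and at 1.33 and 1.37 in the mutant-labelled libraries.

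Drp1, the fission GTPase, was expressed at about the level of fzo, and its groups overlapped. Its locus is on 2L, 2581281 to 2585430 (dm6, minus strand), with transcripts of 2711 to 2868 bases. Drp1 was at 104 and 111 FPKM in the mutant-labelled libraries, against 110 and 122 FPKM in the wild-type libraries. The log2 fold change was -0.11 (SE 0.09, 95% interval -0.34 to 0.13, limma adjusted p = 0.428). The ratio of fzo to Drp1 was 1.02 and 0.913 in the mutant-labelled libraries and 1.24 and 1.001 in the wild type. That of Marf to Drp1 was 0.398 and 0.347 against 0.361 and 0.332. An exact permutation test of either ratio gave p = 0.67 (two-sided).

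The kinase Pink1 and the ligase park differed both in level and in how closely their replicates agreed. Pink1 (X, 6683798 to 6687302, dm6, plus strand) was at 109 and 117 FPKM in the mutant-labelled libraries, against 105.3 and 105.4 FPKM in wild-type testes. Both mutant values were the higher ones, but the deposited intervals overlapped, and the log2 fold change was 0.10 (SE 0.07, 95% interval -0.10 to 0.30, limma adjusted p = 0.382). Under quantile normalization its sign turned, to -0.04 (limma adjusted p = 0.775). The gene park (3L, 21194754 to 21196853, dm6, minus strand) was at 24.0 FPKM in mutant replicate 1, with an interval of 17.4 to 30.6, and at 41.1 FPKM in mutant replicate 2, with an interval of 32.7 to 49.6. In the wild type it was at 47.6 FPKM, with an interval of 41.8 to 53.3, and at 34.4 FPKM, with an interval of 29.5 to 39.2. The replicates of park thus lay outside each other's intervals in both genotypes, and the groups overlapped.

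Of the 7 genes, park alone had replicates with separate intervals. Among the rows compared, 2.45% had separate intervals between the mutant replicates and 4.26% between the wild-type replicates. The estimated fragments of park were also the fewest of the 7 genes, 52.6 and 94.4 in the mutant-labelled libraries and 273 and 202 in the wild type. An antisense gene, asRNA:CR45951, covers 63.8% of the exon bases of park in the Ensembl annotation and had no row matched by name, and the sources used here do not say whether counting used strand, so the level of park is uncertain. Its log2 fold change was -0.35 (SE 0.32, 95% interval -1.23 to 0.52, limma adjusted p = 0.474), and without mutant replicate 1 it was 0.02 (limma adjusted p = 0.961). The ratio of Pink1 to park ran from 2.21 in wild type replicate 1 to 4.55 in mutant replicate 1, with 2.85 in mutant replicate 2 and 3.07 in wild type replicate 2 between them.

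The kinesin adaptor milt had the lowest log2 fold change of the 7 genes as deposited. Its locus on 2L, 7037823 to 7056010 (dm6, plus strand), is the longest of the 7, with annotated transcripts of 3711 to 5535 bases. milt was at 58.0 and 50.8 FPKM in the mutant-labelled libraries, with intervals of 52.3 to 63.8 and 45.6 to 55.9 FPKM. It was at 76.7 and 73.0 FPKM in the wild type, with intervals of 72.3 to 81.1 and 68.8 to 77.1 FPKM. Neither the values nor the intervals of the genotypes overlapped. The means were 54.4 ± 5.15 and 74.8 ± 2.64 FPKM (SD, n = 2 each), a log2 fold change of -0.46 (SE 0.10, 95% interval -0.74 to -0.17, limma adjusted p = 0.0520), just short of the threshold. It passed among genes above 0 in all 4 libraries (limma adjusted p = 0.0334) and under quantile normalization (0.0330). With the trend on transcript length removed, the log2 fold change of milt was -0.12 (limma adjusted p = 0.580).

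The rhomboid protease gene rho-7 rose in the mutant-labelled libraries and was the only one of the 7 genes that passed the threshold. The gene lies on 2R, 11986513 to 11988787 (dm6, minus strand), and its transcripts of 1328 to 1533 bases are the shortest of the 7. Its level was 139 and 132 FPKM in the mutant-labelled libraries, with intervals of 122 to 155 and 116 to 147 FPKM, and 106 and 105 FPKM in the wild type, with intervals of 96.5 to 115.4 and 95.6 to 114 FPKM. Neither the values nor the intervals overlapped, although the lower bound of mutant replicate 2, 115.9 FPKM, lay close to the upper bound of wild type replicate 1, 115.4 FPKM. The means were 135 ± 4.94 and 105 ± 0.924 FPKM (SD, n = 2 each), a 1.28-fold rise (log2 fold change 0.36, SE 0.07, 95% interval 0.17 to 0.55, limma adjusted p = 0.0383).

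The call of rho-7 held in 5 of 13 alternative settings. It did not pass under quantile normalization (log2 fold change 0.19, limma adjusted p = 0.149) or after removal of the length trend (0.24, limma adjusted p = 0.105). It was lost without mutant replicate 1 (0.32, limma adjusted p = 0.0907), mutant replicate 2 (0.39, 0.0790), wild type replicate 1 (0.37, 0.197) or wild type replicate 2 (0.35, 0.213), where at most 262 of all genes passed. In the annotation, 56.8% of the exon bases of rho-7 are shared with CG34231 on the opposite strand. CG34231 was listed at 0 in all 4 libraries, which can be a failed estimate. As for park, it is not stated whether counting used strand, so the level of rho-7 is uncertain too.

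Of 10784 genes averaging 1 FPKM or more, 2164 passed the threshold, which is 20.1%, against 1 of the 7 genes described. Higher in the mutant-labelled libraries were 11.4% and lower 8.67%, and quantile normalization turned this balance from 1229 higher and 935 lower to 849 higher and 982 lower. Library values of the genotypes did not overlap for 4 of the 7 genes, fzo and milt lower and Pink1 and rho-7 higher, where 65.0% of all tested genes were so separated. Deposited intervals were apart for 2 of the 7, milt and rho-7, against 18.2% of the tested genes with a single row. The median log2 fold change of the 7 genes was -0.11 and that of all tested genes -0.0075. These shares are near those of the genes at large.

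**Figure D3:**
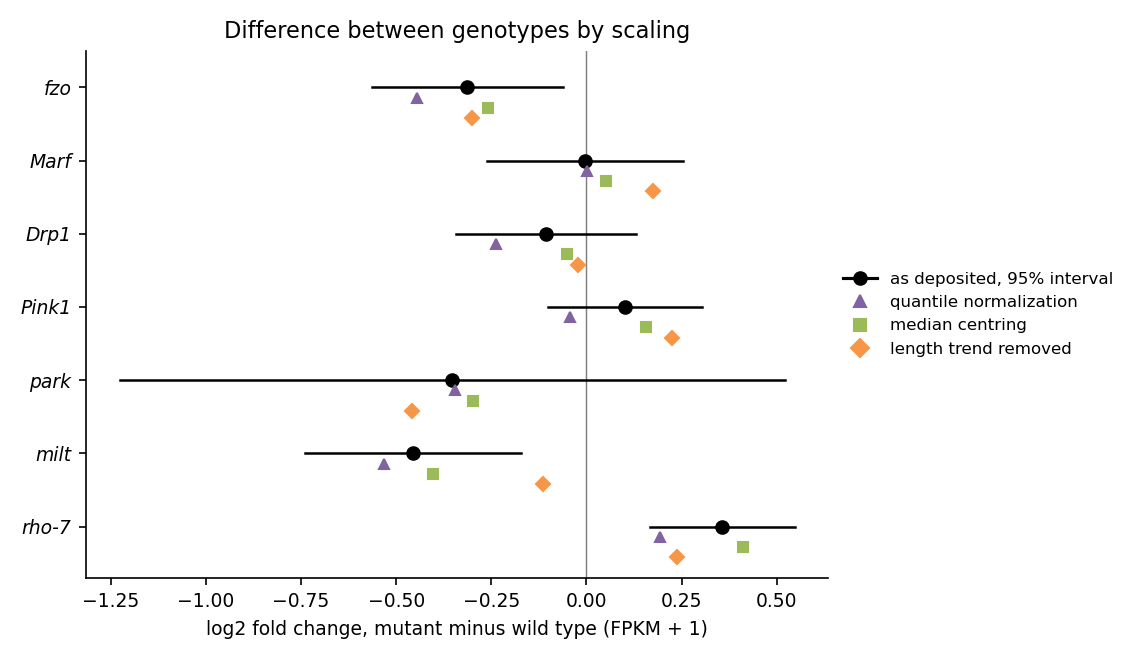
Log2 fold change, mutant minus wild type (horizontal axis, from FPKM + 1), for each of the 7 genes as deposited (black point with its 95% interval by limma) and under 3 other scalings. fzo, Drp1, park and milt stay below 0 and rho-7 above 0 in all of them, whereas milt moves from -0.46 to -0.12 with the length trend removed and Marf and Pink1 lie on both sides of 0.

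In the wild type the order by mean level was fzo (129 FPKM), Drp1 (116), Pink1 (105.3), rho-7 (105.3), milt (74.8), park (41.0) and Marf (40.1). Pink1 and rho-7 overlapped there, as did park and Marf, and fzo and Drp1 were apart by their values (121.7 against 121.6 FPKM at the nearest) but not by their intervals. In the libraries labelled mutant the order was rho-7 (135 FPKM), Pink1 (113), Drp1 (108), fzo (104), milt (54.4), Marf (40.0) and park (32.6), where Pink1, Drp1 and fzo overlapped as neighbours, and so did Marf and park. In both genotypes the values of milt were apart from those of its neighbours, but in the mutant-labelled libraries its lowest interval bound, 45.6 FPKM, lay under the highest of Marf, 47.0 FPKM. Among the tested genes, fzo was at percentile 83.3 and 83.2 in the mutant-labelled libraries and at 87.7 and 86.6 in the wild type, whereas Marf was at 70.3 and 70.0 against 69.5 and 70.7. These percentiles are ranks within a library and do not depend on its scaling.

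Genes with the most similar levels were found by the Euclidean distance over the log2(FPKM + 1) values of the 4 libraries. For fzo these were CG33129 (distance 0.08), CG44158 (0.11), Arf79F (0.14), CG13481 (0.14) and ctp (0.14), with log2 fold changes of -0.42 to -0.20. CG13481 and ctp passed the threshold (limma adjusted p = 0.0421 and 0.0375). For Marf they were MED15 (0.09), CR44911 (0.10), Capr (0.11), Optix (0.12) and CG17746 (0.12), with log2 fold changes of -0.05 to 0.03, of which none passed (limma adjusted p = 0.777 to 0.945). The likeness covers level as well as difference and rests on 4 libraries.

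The wider set of genes for mitochondrial dynamics and quality control held 21 names, of which 20 were tested, 3 rose, 1 fell and 16 did not pass, a share close to the 20.1% of all tested genes. Their median log2 fold change was 0.11. It was 0.16 under median centring and 0.15 with the length trend removed, but -0.03 under quantile normalization. The direction of the list thus did not hold across all scalings. Miro, the partner of milt, rose to 188 and 202 FPKM from 157 and 144 FPKM (log2 fold change 0.37, SE 0.08, limma adjusted p = 0.0473), on the opposite side of the wild type from milt. The kinesin heavy chain gene Khc, the motor of that complex, was at 11.4 and 12.4 FPKM in the mutant-labelled libraries, against 12.3 and 15.3 FPKM in wild-type testes (log2 fold change -0.19), and its groups overlapped.

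Both prohibitin genes, whose products form a ring complex in the inner membrane, were among those that rose. l(2)37Cc rose from 116 and 131 FPKM to 207 and 226 FPKM (log2 fold change 0.80, SE 0.09, limma adjusted p = 0.0153), a 1.75-fold rise. Phb2 rose from 243 and 254 FPKM to 313 and 307 FPKM (0.32, SE 0.06, limma adjusted p = 0.0341). The gene that fell was clu, an RNA-binding protein of the mitochondrial surface that interacts with Pink1 and park, from 47.9 and 53.0 FPKM to 29.9 and 28.3 FPKM (log2 fold change -0.77, SE 0.10, limma adjusted p = 0.0187). It did not pass with the length trend removed, where Miro and l(2)37Cc were the genes of this list that did. Under quantile normalization l(2)37Cc and clu passed, and Miro and Phb2 did not.

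The other partners of fusion and fission did not pass. Opa1, the GTPase that fuses inner membranes, was at 17.7 and 18.1 FPKM in the mutant-labelled libraries, against 21.0 and 21.4 FPKM in wild-type testes (log2 fold change -0.23), with separate groups. Tango11, a receptor of Drp1, was at 166 and 154 FPKM against 140 and 127 FPKM (0.26), and Fis1, an outer membrane fission factor, at 119 and 104 against 111 and 109 FPKM (0.02). Among the genes of this list with the highest levels, YME1L, an inner membrane protease listed as CG3499, was at 222 to 239 FPKM and Mitofilin, a cristae protein listed as CG6455, at 156 to 177 FPKM in the 4 libraries. The phosphatase gene Pgam5 was listed at 0 in 3 libraries and at 13.1 FPKM in wild type replicate 2. vimar was listed at 0 in all 4.

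Of 14 genes for spermatid mitochondria, all tested, 6 rose, 1 fell and 7 did not pass, with a median log2 fold change of 0.19. The shares over all tested genes were 11.4% in the higher and 8.67% in the lower direction. The sperm tail gene Mst87F was also higher as deposited, by 0.86 on the log2 scale. Of the other testis markers, Mst35Ba (0.16), bam (0.12) and betaTub85D (0.10) were above 0 and vas (-0.51) below, and none passed. The part of these markers in the result was not tested. Under quantile normalization the median was -0.10, with 1 gene higher and 4 lower. It was 0.25 under median centring, with 8 higher and 1 lower, and 0.08 with the length trend removed, with 1 higher and 1 lower. Among these scalings, only quantile normalization turned the sign of the median. The calls of this list and of the one before were all lost when any 1 library was left out. The genes that rose were ttm3, tomboy20, bb8, tomboy40, Porin2 and ttm2. ttm3, a Tim50 form of the testis, rose from 160 and 160 FPKM to 265 and 293 FPKM (log2 fold change 0.80, SE 0.07, limma adjusted p = 0.0109), and it passed under quantile normalization and with the length trend removed as well. tomboy20, a Tom20 form, rose from 616 and 598 FPKM to 739 and 761 FPKM (0.31, SE 0.05, limma adjusted p = 0.0262). bb8 rose from 649 and 607 FPKM to 786 and 795 FPKM (0.33, SE 0.06, limma adjusted p = 0.0285), and Porin2 from 517 and 511 to 640 and 601 FPKM (0.27, SE 0.06, limma adjusted p = 0.0423).

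The gene of this list that fell was knon, a testis form of ATP synthase subunit d needed for the shape of the Nebenkern and listed as CG7813. It went from 323 and 285 FPKM in the wild type to 195 and 180 FPKM (log2 fold change -0.69, SE 0.09, limma adjusted p = 0.0186), and it passed under quantile normalization and with the length trend removed. nmd, a mitochondrial ATPase gene named for missing mitochondrial derivatives, was at 40.6 and 39.1 FPKM against 45.4 and 39.9 FPKM (-0.09). mfrn, the mitochondrial iron importer, was at 82.3 and 79.5 against 81.1 and 83.3 FPKM (-0.02). The most abundant were S-Lap1 and loopin-1, aminopeptidases of the sperm mitochondrial derivatives, at 4064 to 4341 and 3581 to 4210 FPKM, followed by dj, a protein of the derivatives, at 1518 to 1860 FPKM and Cyt-c-d at 816 to 974 FPKM. None of these 4 passed as deposited, and under quantile normalization S-Lap1, loopin-1 and dj passed on the lower side.

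**Figure D4:**
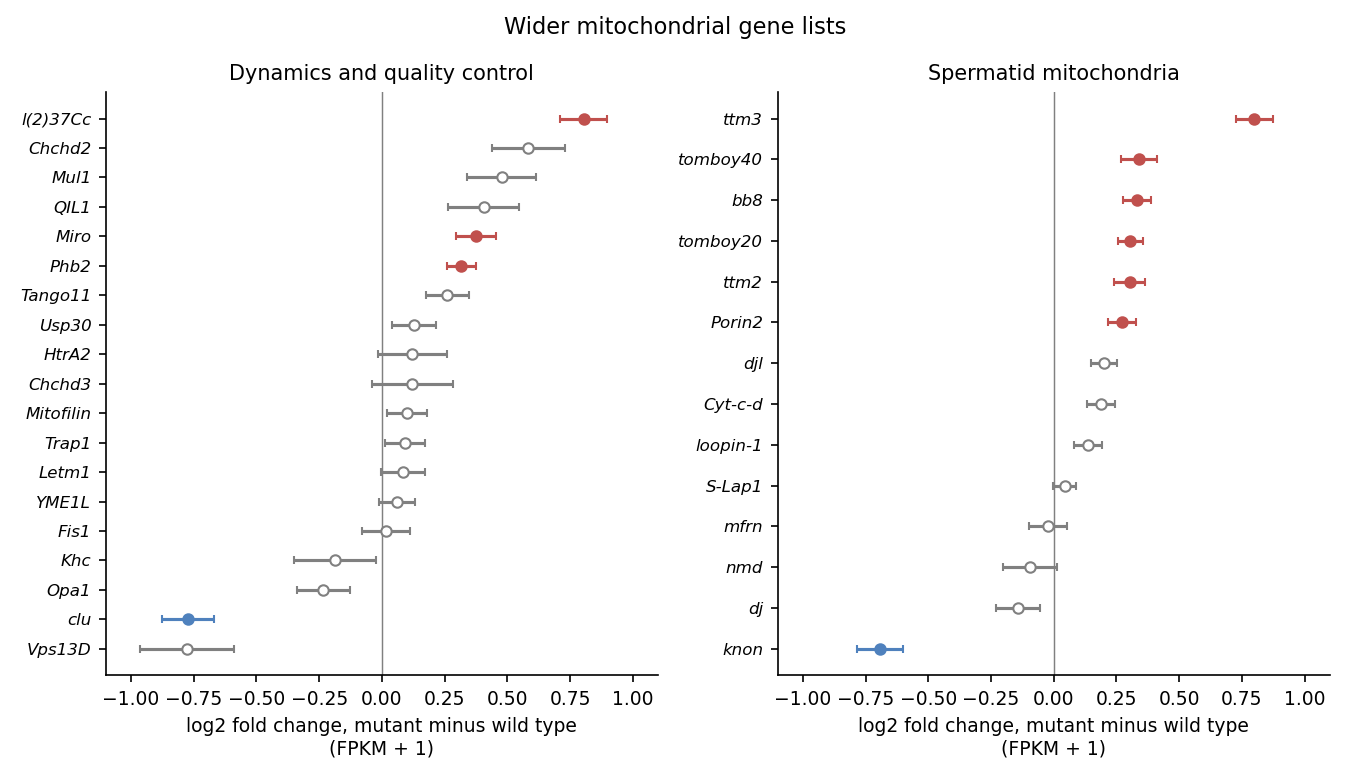
Log2 fold change, mutant minus wild type (horizontal axis, from FPKM + 1), with its SE by limma, for 19 tested genes of mitochondrial dynamics and quality control (left; Pgam5, listed at 0 in 3 libraries, is left out) and 14 genes of spermatid mitochondria (right). Filled red points rose and filled blue points fell at a limma adjusted p under 0.05, and open points did not pass, with clu and knon the blue points and l(2)37Cc and ttm3 the highest red ones.

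Because fzo is transcribed in spermatocytes, the regulators of the spermatocyte programme were read beside it. Of 11 names, 10 had a row, tomb was listed at 0 in all 4 libraries, and none of the 9 tested passed, where 20.1% of all tested genes did. At an unadjusted limma p under 0.05 there were 4 of the 9, can above 0 and nht, achi and vis below. Over all tested genes, 3989 of 10784 were under that value. Their median log2 fold change was -0.32, with 7 below 0 and 2 above (5456 of all 10784 were below 0), and it stayed below 0 under quantile normalization (-0.29) and with the length trend removed (-0.41). The summed level was 195 and 194 FPKM in the mutant-labelled libraries and 226 and 221 FPKM in wild-type testes. Their part in the level of fzo was not tested. Of 5 genes of the somatic cyst and hub cells, 4 had a row. They were at summed levels of 33.9 and 35.6 FPKM in the mutant-labelled libraries and 32.7 and 27.6 FPKM in the wild type, and the markers did not share a direction. eya was at 13.4 and 13.1 FPKM against 11.2 and 10.7 FPKM in the wild type, and Fas3 at 17.3 and 19.5 against 16.0 and 10.9 FPKM. zfh1 was at 2.57 and 2.52 against 4.18 and 4.89 FPKM (log2 fold change -0.64, limma adjusted p = 0.110), and tj, a marker of cyst cells below the level tested, at 0.648 and 0.464 against 1.31 and 1.05 FPKM.

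Of the 7 genes with exons that overlap one of the genes described, 6 had a row, and 5 of those 6 were listed at 0 in all 4 libraries, against 18.8% of all names. They were CR44816 at Marf (9.59% of its exon bases), CG44303 at Pink1 (10.5%), CG34261 at park (1.36%), CG11266 at milt (0.730%) and CG34231 at rho-7. Arpc5, which overlaps 4.99% of the exon bases of Drp1, was above 0, at 103 to 139 FPKM. A listed 0 can be a failed estimate and is not read as absence. Whether fragments of these genes entered the values of the genes they overlap was not tested.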

How the data were processed

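Each library has a deposited FPKM per gene, which the authors' software normalized for transcript length and library size, with the bounds of a 95% interval in the same unit, per the file headers. TopHat, Cufflinks and build dm6 are named in the submitters' processing notes. The sources used here do not name versions, settings, annotation or strand. Rows of 145 repeated names were summed (380 rows); none was of the 7 genes. Fragments were estimated from each interval as (2 × FPKM / upper half-width) squared, which assumes counting error alone.

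Genotypes were compared with limma 3.58.1 under R 4.3.3 (linear model, moderated with a variance trend) on log2(FPKM + 1), which understates changes of low genes. Genes averaging under 1 FPKM were left out. Benjamini-Hochberg adjustment ran over all others, with a threshold of 0.05. The procedure was run on simulated data with the same noise for all genes and no difference in depth between genotypes. That run does not test the calls made in these libraries. Loci, transcript lengths and overlaps were read from Ensembl's annotation for this assembly; starts and ends of the 7 loci were equal. The length trend was a loess fit (span 0.5) on the longest transcript. The genes and lists were chosen with earlier results of these data known. Named from the lists were up to 4 genes per direction with the smallest adjusted p and the 4 most abundant, and others chosen after their values were seen. With 2 libraries a genotype, p-values measure only the spread between these samples.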

Additional observations from a re-analysis of the deposited data

How the results depend on the processing

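In 13 alternatives, fzo (log2 fold change -0.45 to -0.23), Drp1 (-0.24 to -0.02) and milt (-0.55 to -0.12) stayed below 0 and rho-7 (0.19 to 0.41) above 0, with limma adjusted p of 0.0348 to 0.273, 0.195 to 0.855, 0.0330 to 0.580 and 0.0282 to 0.213. Signs turned for Marf under quantile normalization (0.00074), median centring (0.051), with the length trend removed (0.17) and without mutant replicate 2 (0.053) or wild type replicate 2 (0.0046), for Pink1 under quantile normalization (-0.043) and for park without mutant replicate 1 (0.023), with -0.059 to 0.053 for Marf and -0.73 to 0.023 for park when a library was left out; none of these was past the threshold. Of the 7 genes, 2 passed among genes above 0 in all libraries, where 2573 of 9762 genes did. Under quantile normalization 2 passed, beside 1831 of 10784 genes. With the length trend removed 0 passed, beside 1463 of 10767 genes, and without the variance trend 0, beside 1103 of 10784. Of 11 called genes of the wider lists, 2 were left with no filter, 7 were called under quantile normalization, 4 with the length trend removed, 3 without the variance trend and 0 to 1 when a library was left out. Over all genes, 2164 calls became 1173 with no filter, 1103 without the variance trend and 0 to 262 when a library was left out, where 2374 to 3989 had an unadjusted limma p under 0.05. The replicate block left 1671 calls, 0 of the 7 genes (rho-7, limma adjusted p = 0.0634) and 6 of the wider lists. The numbers did not pair the libraries (r = -0.05 of deviations across genes), and the ratio of fzo to Marf was not fitted with the block. The causes of these changes were not tested. The ratio of fzo to Marf differed by -0.47 to -0.22 in its alternatives. Precision was lowest for park, whose deposited intervals reached 27.6% to either side of the value.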
